A study of Mus musculus with 4 samples.

Results

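A set of 10 glycolysis genes was followed through the splenic B220+IgD- cells of immunized mice. They are the glucose transporter gene Slc2a1 and the genes Hk2, Aldoa, Tpi1, Gapdh, Pgk1, Pgam1, Eno1, Pkm and Ldha, and the rule lists them by name. They make up 10 of the 31053 genes counted. Single-cell RNA sequencing was done on 4 libraries, each from 1 mouse of 1 genotype, taken 10 days after an injection of sheep red blood cells (SRBC), which induces germinal centers (GC). Wherever 4 values stand in a row, they are those of WT, C, K and CK. All mice were 8-week-old females on a C57BL/6J background and carried 1 Cγ1-cre allele, which acts in B cells that have entered the GC reaction. The WT mouse had Cγ1-cre and no floxed allele. The C mouse also had 1 floxed Crebbp allele, the K mouse had 1 floxed Kmt2d allele, and the CK mouse had both. Cells were enriched with B220 beads and then sorted as B220+IgD-, a gate that also let through cells with T cell markers.

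Glycolysis turns 1 glucose into pyruvate in the cytosol. Glucose enters through transporters such as Slc2a1 (GLUT1) and is trapped by hexokinases such as Hk2. Aldoa cleaves the phosphorylated sugar, and Tpi1 interconverts the resulting triose phosphates. Gapdh, Pgk1, Pgam1 and Eno1 then carry the triose through the payoff steps. Pkm makes pyruvate and ATP, and Ldha reduces pyruvate to lactate. GC B cells cycle between a dark zone, where centroblasts (CB) divide, and a light zone, where centrocytes (CC) are selected with the help of T cells. Selected CC switch on Myc for a short time, and Myc and Hif1a are known activators of many glycolysis genes. Most mRNAs of this pathway are also used by resting cells, so the comparisons below are of levels and not of presence.

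In the mm10 build (GRCm38, GENCODE vM21) Slc2a1 lies at chr4:119108711-119137983 and Eno1 at chr4:150236721-150248879, both on the plus strand. On chromosome 6 are Hk2 (chr6:82725025-82774454), Tpi1 (chr6:124810586-124814296) and Gapdh (chr6:125161715-125166467), all on the minus strand. Ldha is at chr7:46841475-46855627 on the plus strand and Aldoa at chr7:126795234-126800751 on the minus strand. Pkm (chr9:59656368-59679375), Pgam1 (chr19:41911923-41918660) and Pgk1 (chrX:106187100-106203699) are on the plus strand. Reads were counted near the 3′ end, so the muscle and proliferative splice forms of Pkm could not be told apart.

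The windows of 3 promoters are shown. Ldha was the member called between CC or recycling cells with and without a Myc UMI, and Gapdh and Aldoa moved in opposite directions between CB and CC. Each window holds the 250 bases before a RefSeq transcription start (GRCm38.p6), read 5′ to 3′ on the strand of the gene, and none of the 3 overlaps an annotated exon. Capitals mark matches on either strand to CACGTG, the E-box that Myc binds, and to ACGTG and GCGTG, the core that Hif1a binds. Every CACGTG holds ACGTG as well. The windows are chr7:46845554-46845803 (plus strand) for Ldha, chr6:125165774-125166023 (minus strand) for Gapdh and chr7:126799255-126799504 (minus strand) for Aldoa.
Ldha: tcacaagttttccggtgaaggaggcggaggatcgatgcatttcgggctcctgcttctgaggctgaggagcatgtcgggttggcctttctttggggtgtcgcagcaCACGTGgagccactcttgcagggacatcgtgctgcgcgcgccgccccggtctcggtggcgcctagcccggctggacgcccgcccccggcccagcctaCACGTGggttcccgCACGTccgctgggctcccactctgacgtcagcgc
Gapdh: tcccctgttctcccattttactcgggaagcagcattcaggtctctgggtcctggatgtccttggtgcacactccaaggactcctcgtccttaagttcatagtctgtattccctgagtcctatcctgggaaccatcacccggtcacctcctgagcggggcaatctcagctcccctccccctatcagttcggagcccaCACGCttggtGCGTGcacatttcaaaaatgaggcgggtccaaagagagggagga
Aldoa: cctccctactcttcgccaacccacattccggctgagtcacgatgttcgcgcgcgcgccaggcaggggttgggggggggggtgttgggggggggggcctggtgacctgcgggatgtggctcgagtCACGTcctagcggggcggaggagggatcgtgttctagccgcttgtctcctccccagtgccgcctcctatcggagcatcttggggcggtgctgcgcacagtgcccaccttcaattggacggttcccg
The Ldha window holds 2 E-boxes, which begin 145 and 48 bases before the start. All 10 members had windows in the RefSeq table, 16 in total, since Ldha, Aldoa, Eno1 and Pkm have more than 1 start and some of their windows overlap. CACGTG was in 1 of these 16 windows, and in 6.02% of all 32851 windows of this length. ACGTG was in 8 of the 16 and in 16.6% of all windows, and GCGTG in 7 of the 16 and in 28.2% of all windows. A match of these letters describes the sequence and is not evidence of binding.

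The libraries held 8071 to 12852 barcodes and 33270825 to 39803865 UMIs (unique molecular identifiers, each standing for 1 captured transcript). The deposited annotation named 1227, 2041, 2583 and 3953 GC B cells as early CB, CB, transitioning, CC, recycling and prememory cells. It held cells under 2500 genes, and the share of GC B-like barcodes at or above that limit was 44.0%, 26.4%, 24.1% and 14.5%. Barcodes under 8% mitochondrial UMIs, annotated or not, were clustered here without any member or other pathway gene. Clusters were called B-like or T-like from their markers, and only their unannotated cells under the same limits were used. In all 4 libraries each of the 8 GC B markers was over 20 CPM (counts scaled to a total of 1e+06 UMIs over the cells summed) in annotated GC B cells, each of 8 markers of B cells outside the GC was so in B-like cells, and each of 8 T cell markers was so in T-like cells. The K library stood apart. Of its 1256 B-like cells, 713 were in a cluster that held 20 to 24 cells of each other library, and the median of all genes in its GC B cells was 0.14 lower on the log2 scale than in WT. Among annotated cells, 9 barcodes occurred in more than 1 library.

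**Figure D1:**
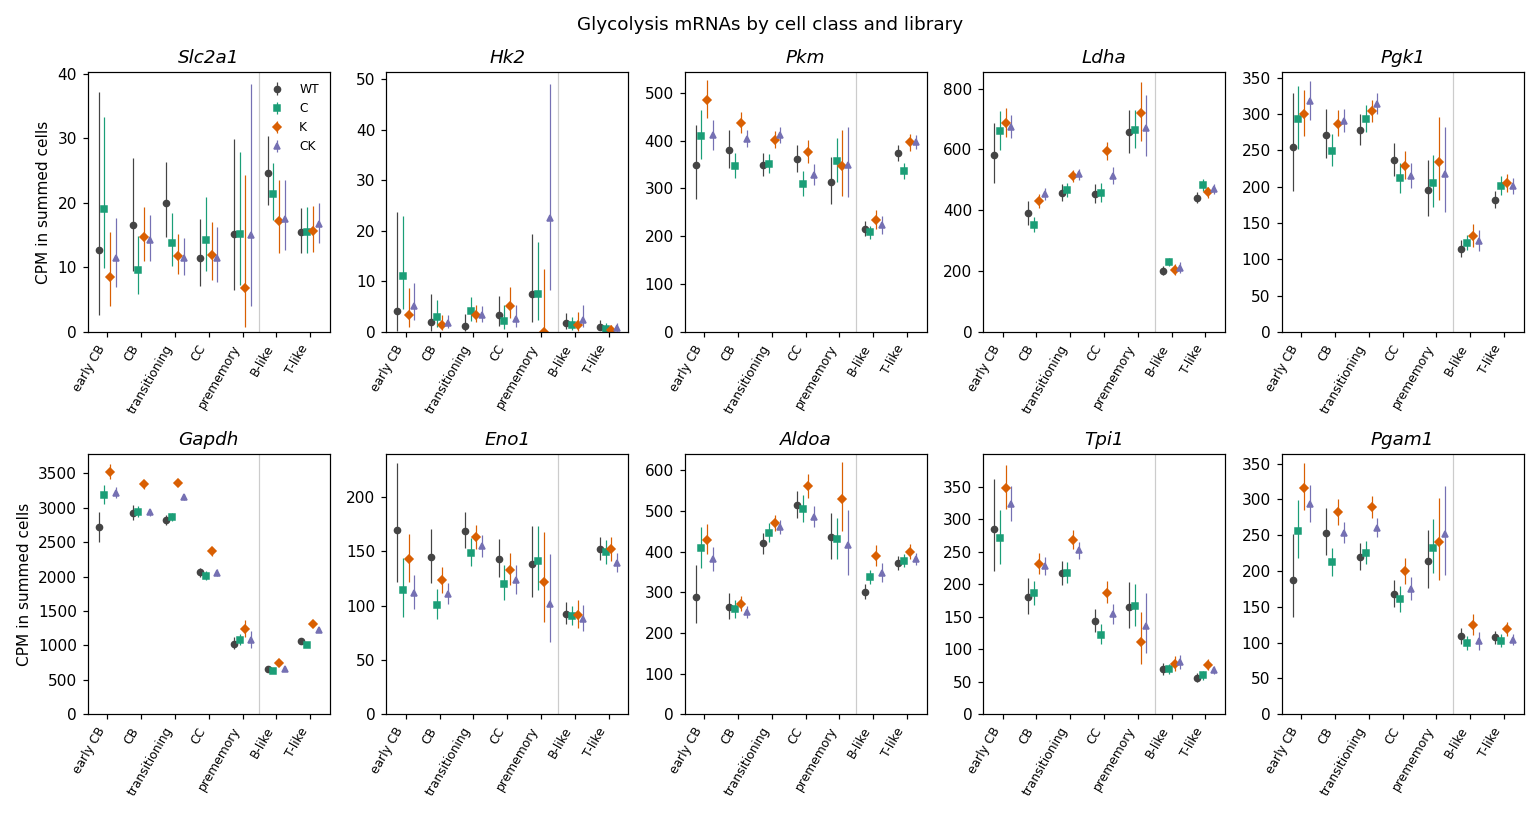
Levels of the 10 members in CPM (y axis, from 0) in 5 GC subtypes and in unannotated B-like and T-like cells (x axis), with 1 point per library and bars for the 95% exact Poisson interval of the count. Gapdh and Tpi1 are highest in the dark zone classes and transitioning cells, Aldoa is lowest in CB, and Ldha is lowest in B-like cells.

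The first question was whether GC B cells held more glycolysis mRNA per UMI than the other B cells of the sort. They did for 9 of 10 members, whereas Slc2a1 was lower. Gapdh, the NAD-dependent step, was at 2455, 2586, 3130 and 2865 CPM in GC B cells. In B-like cells of the same libraries Gapdh was at 653, 635, 745 and 659 CPM. No GC B value came near a B-like value, and the difference was 2.10 on the log2 scale (SE 0.0453, edgeR quasi-likelihood adjusted p = 2.41e-15), a 4.29-fold difference. Tpi1 followed with 188, 190, 247 and 234 CPM in GC B cells against 69.4, 69.5, 77.3 and 79.9 in B-like cells. This gave a log2 difference of 1.59 (SE 0.0709, edgeR adjusted p = 6.64e-12).

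At the end of the pathway Ldha was at 473, 473, 532 and 531 CPM in GC B cells and at 201, 230, 204 and 211 in B-like cells. Its log2 difference was 1.31 (SE 0.0648, edgeR adjusted p = 2.43e-11). Pgk1, which makes the first ATP of the pathway, was higher by 1.20 (SE 0.0592, edgeR adjusted p = 2.33e-11), and the mutase Pgam1 by 1.18 (SE 0.0697, edgeR adjusted p = 2.26e-10). Pkm was higher by 0.85 and Eno1 by 0.67, while Aldoa differed least among the 9, by 0.34 (SE 0.0551, edgeR adjusted p = 3.64e-05). In each of the 4 libraries these 8 genes were higher in GC B cells.

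Both genes at the entry of the pathway were sparse. Slc2a1 counted 98, 116, 155 and 190 UMIs in GC B cells, or 16.2, 13.3, 12.2 and 12.3 CPM, against 24.6, 21.4, 17.2 and 17.5 CPM in B-like cells. It was lower in GC B cells of every library, by 0.52 on the log2 scale (SE 0.117, edgeR adjusted p = 0.000934). Hk2 was higher by 1.07 (SE 0.322, edgeR adjusted p = 0.00745) on 16, 36, 40 and 53 UMIs in GC B cells and 6, 6, 3 and 6 in B-like cells. The Hk2 call was lost with the DESeq2 Wald test and without the C library, where the difference was 0.79. Without the C library 9 of 10 members were called.

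Of 9978 genes tested, 3490 (35.0%) were called higher and 3329 (33.4%) lower in GC B cells, and 68.3% were called in either direction. The median difference was 1.13 over the 10 members and -0.008 over all genes. GC B cells were deeper, with medians of 3653 to 4931 UMIs per cell against 1194.5 to 2109.5 in B-like cells. In an alternative chosen after seeing the data, cells under 2000 UMIs were left out and the others were thinned to 2000 UMIs each. This kept 908, 448, 249 and 123 of 1526, 2666, 1256 and 1876 B-like cells. Of the GC B cells it kept 1183, 1935, 2495 and 3623, so the B-like side was reduced to its deeper cells. In these cells 8 members were called higher and Slc2a1 lower, Hk2 fell under the filter on low counts and Aldoa differed by 0.20. Summed plasma cell markers were at 2700 to 3110 CPM in GC B cells and 795 to 947 in B-like cells, with 4 of 6 over 20 CPM in both and none at 0. T cell markers summed to 27.7 to 44.2 CPM in GC B cells and 73.1 to 138 in B-like cells. Erythroid markers summed to 1010, 932, 27.8 and 20 CPM in B-like cells and 79.6, 490, 83.6 and 38.7 in GC B cells. Their part in these differences was not tested. In this mix of cells, fewer cells with a transcript and less of it per cell give the same CPM.

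The wider pathway did not move as a block between GC B and B-like cells. Of 16 other glycolysis enzymes 8 could be tested, 4 were higher and 3 lower, and their median was 0.39. Aldoc, a second aldolase, was higher by 1.98 (edgeR adjusted p = 2.34e-06), the phosphofructokinase Pfkp by 1.05 (edgeR adjusted p = 1.45e-07) and Bpgm, which diverts the triose route to 2,3-bisphosphoglycerate, by 1.03 (edgeR adjusted p = 1.42e-06). Of 8 genes that handle glucose and lactate, 1 was higher and 2 were lower among 6 tested (median 0.07). The lactate carrier Slc16a1 was 1.84 higher (edgeR adjusted p = 5.6e-06), its relative Slc16a7 was at -3.85 (edgeR adjusted p = 2.97e-08) and the glucose transporter Slc2a3 at -1.33 (edgeR adjusted p = 2.07e-05).

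Genes that set the flux between glycolysis and mitochondria went both ways. Pdk3, a kinase that inactivates pyruvate dehydrogenase, was higher by 1.95 (edgeR adjusted p = 3.26e-10). Its relative Pdk2 was at -4.43 (edgeR adjusted p = 7.77e-08) and Pfkfb4, which makes an activator of phosphofructokinase, at -1.91 (edgeR adjusted p = 6.2e-06). In this list 2 were higher and 4 lower among 8 tested, with a median of -0.75. In the pentose phosphate pathway, which branches from glycolysis to supply ribose and NADPH, 4 of 7 were higher and 1 lower (median 0.19), led by Tkt at 1.00, Pgd at 0.79 and Taldo1 at 0.63. Among genes for the mitochondrial fate of pyruvate 6 of 9 were higher and 2 lower (median 0.28), with Cs and Idh3a at 0.68 each and the pyruvate carrier Mpc1 at -0.46. No hypoxia gene was higher. Of 11 tested, 5 were lower (median -0.32), with Mxi1 at -2.53, Adm at -1.97 and Bhlhe40 at -1.03.

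**Figure D2:**
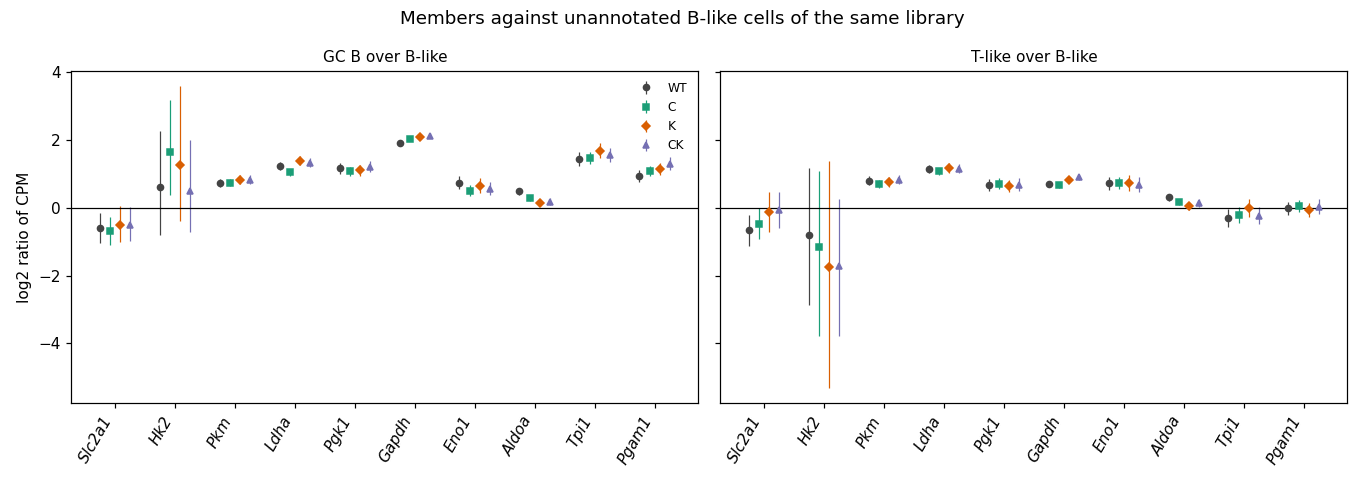
Log2 ratio of CPM (y axis) of each member (x axis) in GC B cells (left) and T-like cells (right) over B-like cells of the same library, with bars for the 95% exact conditional binomial interval. Gapdh lies between 1.91 and 2.12 in GC B cells of the 4 libraries, and Slc2a1 lies below 0 in both panels.

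T-like cells also held more of most members than B-like cells. Ldha was at 440, 483, 459 and 469 CPM in T-like cells, 1.21 above B-like cells on the log2 scale (SE 0.0421, edgeR adjusted p = 8.31e-25). Pkm and Gapdh were each higher by 0.85, Eno1 by 0.79, Pgk1 by 0.75 and Aldoa by 0.24 (edgeR adjusted p = 4.15e-06). Tpi1 differed by -0.12 (edgeR adjusted p = 0.13) and Pgam1 by 0.08 (edgeR adjusted p = 0.206). So 6 of 9 members tested were higher, where 31.4% of 10177 genes were called higher, 32.2% were called lower and 63.5% were called in all. The median was 0.75 over the members and -0.017 over all genes.

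Slc2a1 was called lower in T-like cells at -0.29 (SE 0.128, edgeR adjusted p = 0.0462). That call was lost with DESeq2 size factors, with the DESeq2 Wald test, with no filter on low counts, with doublets removed, with no library block (-0.28), without the WT library (-0.16) and without the C library (-0.22). Aldoa at 0.24 was also not called with no library block, which left 5 members. Hk2 counted 2 to 5 UMIs per library in T-like cells and was under the filter. In the same comparison Ldhb, which encodes the heart-type subunit of lactate dehydrogenase, was higher in T-like cells by 4.96 (edgeR adjusted p = 6.83e-21). Slc16a1 was higher by 2.33 (edgeR adjusted p = 3.52e-11), and Slc16a7 was at -5.16 (edgeR adjusted p = 1.17e-11). In the glucose and lactate list 4 of 6 tested were higher and 1 was lower (median 0.67). The phosphofructokinase Pfkp was higher by 1.32 (edgeR adjusted p = 1.35e-15). Of other glycolysis enzymes 7 of 9 tested were higher and 1 lower, led by Pgam2 at 4.38 and Eno3 at 1.39, whereas in the pentose phosphate list none of 7 was higher and 4 were lower, with Rpia at -1.34, Pgls at -1.05 and Taldo1 at -0.39. Hypoxia genes were split, 6 higher and 6 lower of 12 tested, from Egln3 at 5.03 and Ddit4 at 1.94 to Adm at -4.97. Of the flux regulators 2 were higher and 3 lower among 7, with Pdk1 at 1.99, Pdk3 at 0.75 and Pfkfb4 at -1.29. Of the pyruvate list 3 were higher and 2 lower among 9, with Pdha1 at 0.68, Idh3a at 0.34 and Mpc1 at -0.44. T-like cells were deeper, with medians of 1969 to 3264 UMIs against 1194.5 to 2109.5 in B-like cells. Summed erythroid markers were at 9.1, 766, 4.76 and 160 CPM in T-like cells, beside the B-like values given above. Plasma cell markers summed to 149 to 220 CPM in T-like and 795 to 947 in B-like cells, and natural killer cell markers to 589 to 722 and 5.2 to 6.92. Their part in these differences was not tested.

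T-like clusters differed among themselves, which is given as a description since clusters are drawn from the same cells. The cluster led by Pdcd1, Il21, Tox2 and Ascl2, genes known from follicular helper T cells, had 2575 to 2815 CPM of Gapdh, 791 to 975 of Pkm and 783 to 847 of Aldoa across the 4 libraries. The cluster led by Cd8a, Cd8b1, Lef1 and Igfbp4 had 682 to 809 CPM of Gapdh, 246 to 277 of Pkm and 288 to 327 of Aldoa. These ranges did not overlap, and median UMIs per cell were 1900.5 to 2993 in the former and 1910 to 3240 in the latter. The cluster led by Foxp3, Ctla4 and Tnfrsf4 was between them for Gapdh, with 1513 to 2192 CPM. Ldha was highest in the cluster led by Myb, Eomes and Itm2a, at 610 to 825 CPM, of which the doublet caller Scrublet called 7.8% doublets.

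B-like clusters were closer to each other. Gapdh ran from 852 to 1075 CPM in the cluster led by Ccr6, Bhlhe41 and Zbtb32 and from 607 to 658 in the largest B-like cluster. Slc2a1 was at 27.6 to 39.1 CPM in the Ccr6 cluster and at 6.31 to 19.4 in the cluster led by Egr3, Il4i1 and Fcer2a. An unnamed cluster of 1234 barcodes led by Cr2, Fcrl5 and Cd1d1 also had Slc2a1 at 27.4 to 33.4 CPM. The GC B values of 12.2 to 16.2 CPM lie within the range of these 3 clusters. In plasma-like cells, whose totals include their immunoglobulin transcripts, Gapdh was at 589 to 850 CPM, Ldha at 89.6 to 164 and Eno1 at 36.7 to 47.7. Hk2 was at 5.87 to 9.61 CPM there, on 4, 5, 6 and 7 UMIs. In the 15 to 31 myeloid-like cells of each library Hk2 was at 11.0 to 69.4 CPM, on 6, 1, 2 and 4 UMIs. Exact Poisson intervals of the myeloid-like values ran from 25.5 to 151 CPM in WT and from 0.278 to 61.1 in C. These counts are too few to fix the level of Hk2 in either class.

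Within the GC, dark zone CB and light zone CC differed in opposite directions from member to member. The names of these classes were assigned by the authors from expression, so the p-values describe named classes. Aldoa was at 265, 258, 272 and 251 CPM in CB, and at 515, 505, 561 and 486 in CC. The groups did not overlap, and the log2 difference of CB from CC was -1.06 (SE 0.0538, edgeR adjusted p = 3.18e-20), so that CC held 2.08 times the level of CB. Gapdh went the other way, with 2931, 2944, 3339 and 2936 CPM in CB and 2061, 2014, 2365 and 2057 in CC. The difference was 0.44 (SE 0.0394, edgeR adjusted p = 1.43e-12).

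The steps after aldolase were mostly higher in CB. Pgam1 differed by 0.43 (SE 0.0619, edgeR adjusted p = 1.3e-07), Tpi1 by 0.38 (SE 0.0687, edgeR adjusted p = 1.03e-05) and Pgk1 by 0.24 (SE 0.0618, edgeR adjusted p = 0.00107), each higher in CB of all 4 libraries. Without the CK library Pgk1 was at 0.17 and was not called. Pkm was at 0.13 (edgeR adjusted p = 0.0582). The last step was lower in CB, with Ldha at 390, 353, 430 and 453 CPM in CB and 453, 457, 594 and 514 in CC. Its difference was -0.39 (SE 0.0545, edgeR adjusted p = 9.85e-08), with CB lower in each library although the CB and CC ranges met at 453 CPM. Eno1 was at -0.21 (SE 0.0723, edgeR adjusted p = 0.0153), lower in CB of 3 of 4 libraries.

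Of 8602 genes tested, 26.9% were called higher and 26.1% lower in CB, together 52.9%, against 4 and 3 of 9 members. Slc2a1 differed by 0.10 (edgeR adjusted p = 0.703) and Hk2 was under the filter. CB were deeper, with medians of 4604 to 5526 UMIs against 2670 to 4741 in CC. After thinning to 2000 UMIs, a setting chosen after seeing the data, 4 members were higher and 3 lower of 9 tested. When GC cells at or above 2500 genes were added under the label of their neighbours, Aldoa was at -0.56 and still called. Ldha at -0.008 and Eno1 at -0.022 were not called there and Pkm was called at 0.42. In that setting all 10 members were tested, Hk2 included, and 5 were called higher and 2 lower in CB. The Eno1 call was also lost with the DESeq2 Wald test, with no filter on low counts and without the C library (-0.17). With no library block Eno1 (-0.21), Ldha (-0.39), Pgk1 (0.23) and Tpi1 (0.37) were not called, which left Aldoa, Gapdh and Pgam1.

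The second aldolase gene moved with Aldoa, since Aldoc was at -2.57 (SE 0.24, edgeR adjusted p = 4.3e-12) in CB against CC. Among the other glycolysis enzymes 6 of 7 tested were lower in CB and 1 was higher (median -0.50, beside -0.006 over all genes). Among the 6 were 2 enzymes that phosphorylate glucose, Adpgk at -1.21 (edgeR adjusted p = 4.06e-06) and Hk1 at -0.98 (edgeR adjusted p = 0.0016). The transporter Slc2a6 was at -2.12 (edgeR adjusted p = 1.54e-05). Of hypoxia genes none of 9 tested was higher and 4 were lower, with Bhlhe40 at -3.53 (edgeR adjusted p = 4.67e-14), Ddit4 at -2.60 (edgeR adjusted p = 2.46e-15) and Ankrd37 at -0.83. In contrast 3 of 9 genes of the mitochondrial fate of pyruvate were higher in CB and none lower, with Dld at 0.48, Idh3a at 0.29 and Cs at 0.21. In the pentose phosphate list Rpia was at 0.72 and Tkt at 0.19, and Pgls at -0.24.

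**Figure D3:**
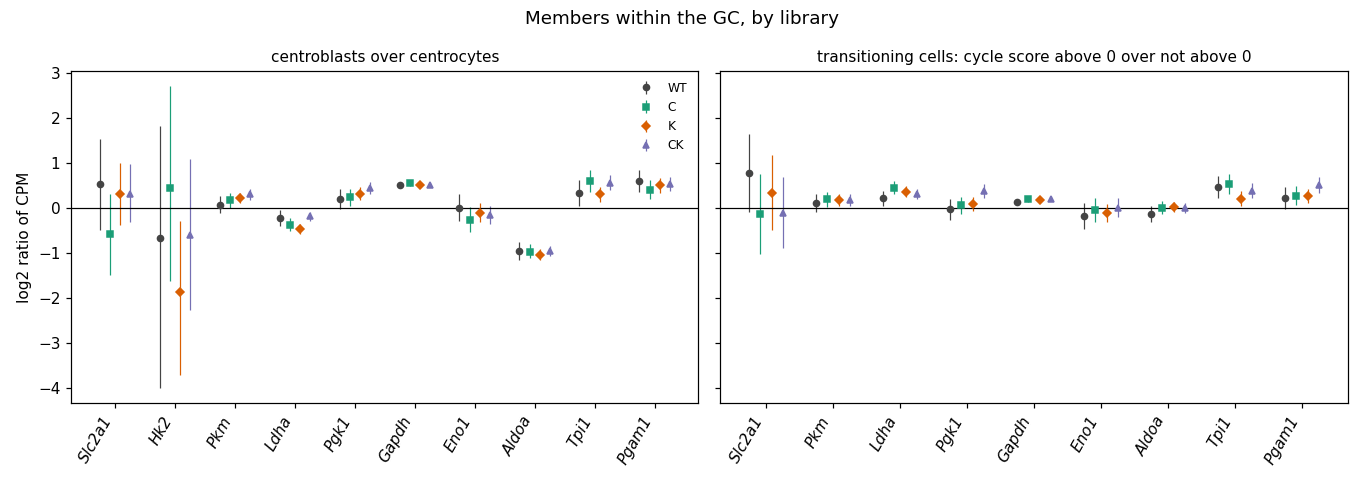
Log2 ratio of CPM (y axis) of each member (x axis) in CB over CC (left) and in transitioning cells with over without a positive cycle score (right, without Hk2), with bars for the 95% exact conditional binomial interval. Aldoa lies between -1.04 and -0.95 in the left panel and near 0 in the right panel, and Ldha is below 0 on the left and above 0 on the right.

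Cells of 1 class were also compared by their cycle scores. Transitioning cells with a deposited S-phase or G2M score above 0 were compared with transitioning cells in which both scores were at or below 0. These are groups of higher and lower scores, not of dividing and resting cells. Of 9 members tested, 6 were higher in the former and none was lower, where 17.2% of 8000 genes were called higher and 12.5% lower, together 29.6%. Tpi1 was at 260, 255, 283 and 273 CPM in cells with a positive score, and at 188, 177, 245 and 210 in the others. The groups did not overlap, and the difference was 0.42 (SE 0.0555, edgeR adjusted p = 9.23e-09). Ldha was at 499, 538, 561 and 554 CPM against 430, 394, 437 and 446, again without overlap, with a difference of 0.38 (SE 0.0454, edgeR adjusted p = 2.65e-10).

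Pgam1 was also higher by 0.38 (SE 0.0555, edgeR adjusted p = 8.72e-08), Gapdh by 0.22 (SE 0.0342, edgeR adjusted p = 3.03e-07), Pkm by 0.21 (SE 0.0469, edgeR adjusted p = 0.000222) and Pgk1 by 0.19 (SE 0.0548, edgeR adjusted p = 0.0045). Pgk1 rested on the CK library, without which it was at 0.087 and not called, and the DESeq2 Wald test did not call it. Aldoa at 0.03 (edgeR adjusted p = 0.719) and Eno1 at -0.02 (edgeR adjusted p = 0.811) were not called. The median of the members was 0.22, beside -0.008 over all genes. Cells with a positive score were deeper, with medians of 4075.5 to 5864 UMIs against 2961 to 4915, and 6 members were still called after thinning to 2000 UMIs. Of the other lists, Egln1, an oxygen sensor that marks Hif1a for degradation, was higher by 0.94 (edgeR adjusted p = 3.7e-05) and Pdk3 by 0.41 (edgeR adjusted p = 0.00315), while Bpgm was at -0.52 (edgeR adjusted p = 6.75e-05). Among other glycolysis enzymes 0 of 7 tested were higher and 1 was lower (median 0.02). Of 7 pentose phosphate genes Tkt was higher by 0.16 (edgeR adjusted p = 0.0151) and Rpia was at -0.30 (edgeR adjusted p = 0.00146), with a median of -0.08. Of 9 pyruvate genes Dld was higher by 0.37 (edgeR adjusted p = 0.0114) and Idh3a by 0.36 (edgeR adjusted p = 0.00124), while Pdha1 was at -0.27 (edgeR adjusted p = 0.0271), with a median of 0.10. Egln1 was the 1 hypoxia gene called of 7 tested and Pdk3 the 1 flux gene of 2, and neither of 2 glucose and lactate genes was called. With no library block Ldha alone of the members was called. At an unadjusted p under 0.05 the same 6 members passed.

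Prememory cells, named for cells on the way out of the GC, differed from CC most in Gapdh among the members tested. In each B-like cluster the commonest annotation was prememory. There were 402 annotated cells in the cluster led by Egr3, Il4i1 and Fcer2a and 93 in the largest. How far this comparison repeats that of GC B with B-like cells was not tested. Gapdh was at 1026, 1080, 1240 and 1081 CPM in prememory cells, against 2014 to 2365 in CC. CC were higher by 1.02 (SE 0.0594, edgeR adjusted p = 1.88e-20). Ldha went the other way, with 657, 665, 720 and 672 CPM in prememory cells and a difference of -0.36 for CC over prememory (SE 0.0704, edgeR adjusted p = 2.86e-05). Pgam1 was at -0.34 (SE 0.097, edgeR adjusted p = 0.00346), a call lost with the DESeq2 Wald test, with no filter, without the C library (-0.28) and when cells over the gene limit were added. Aldoa was at 0.28 (SE 0.0754, edgeR adjusted p = 0.00208) and was not called after thinning, where it was at 0.19. With no library block Gapdh alone was called, with Ldha at -0.34, Aldoa at 0.27 and Pgam1 at -0.32.

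So 2 of 9 members tested were higher and 2 lower in CC, where 20.8% of 7472 genes were called higher and 21.2% lower, together 42%. CC were deeper, with medians of 2670 to 4741 UMIs against 1991 to 3299 in prememory cells. After thinning to 2000 UMIs 1 member was higher and 2 were lower of 8 tested. Tpi1 had a mean difference of 0.06 (edgeR adjusted p = 0.717) but did not behave alike in the libraries. It was higher in CC of K by 0.75 (95% interval 0.24 to 1.30, on 33 UMIs in prememory cells) and lower in CC of C, at -0.43 (95% interval -0.77 to -0.09). Among the other enzymes Aldoc at 2.56 (edgeR adjusted p = 1.85e-06), Bpgm at 1.32 and Gpi1, the isomerase of the second step, at 0.98 (edgeR adjusted p = 9.38e-13) were higher in CC, 3 of 7 in all with none lower. Slc16a1 was at -1.83 (edgeR adjusted p = 6.33e-06) and Bsg, the chaperone of lactate carriers, at -0.40, while Pdk3 was at 1.62 (edgeR adjusted p = 1.71e-07). Of 8 hypoxia genes 2 were higher and 2 lower in CC, with Ddit4 at 1.80, Bhlhe40 at -1.53 and Ero1l at -1.18. Of 6 pentose phosphate genes 1 was higher and 3 were lower, with Taldo1 at 0.55, Rpia at -0.97 and Pgls at -0.65. Of the 9 pyruvate genes 1 was higher and 3 were lower, with Dlat at -0.95, Idh3a at -0.66 and Mpc1 at -0.60. When every annotated cell was given the commonest name among its nearest neighbours, 84.1% kept their own.

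Myc marks CC that have been selected to divide again, so cells named CC or recycling with at least 1 Myc UMI were compared with those without. There were 24, 22, 50 and 58 such cells, against 366, 503, 576 and 927 without. The groups pool CC with the 8, 10, 15 and 49 recycling cells of the 4 libraries. Recycling cells had Ldha at 993 to 1334 CPM, above the 453 to 594 of CC. Their share in each group was not counted, and its part in the values below was not tested. Ldha was at 645, 540, 889 and 760 CPM in Myc-positive cells and at 456, 482, 589 and 566 in Myc-negative cells, higher in each of the 4 libraries. The difference was 0.43 (SE 0.0927, edgeR adjusted p = 0.000482). It was the only member called of 9 tested, where 4.95% of 6894 genes were called (3.21% higher and 1.74% lower), and 2 members, Ldha included, had an unadjusted p under 0.05.

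Myc-positive cells were deeper, with medians of 3993 to 6112 UMIs against 2686 to 4720. Among the cells with at least 2000 UMIs, which kept 24, 22, 50 and 57 of the Myc-positive cells, Ldha was at 0.40 and called. When these cells were thinned to 2000 UMIs each and kept their Myc status, it was at 0.32 and was not called. When Myc was read again after thinning, 11, 16, 27 and 29 cells were Myc-positive, and Ldha was at 0.045 and was not called. The first 2 of these settings were chosen after seeing the data. It was also not called without the K library (0.34) or with no library block (0.44). Pgam1 was at 0.34 (edgeR adjusted p = 0.179), Tpi1 at 0.27 (edgeR adjusted p = 0.394) and Gapdh at -0.01 (edgeR adjusted p = 0.978). Hk2 was under the filter with 1, 0, 8 and 2 UMIs in Myc-positive cells. Of the lists, Pfkp was higher by 0.76 (edgeR adjusted p = 0.0237), Tkt by 0.40 (edgeR adjusted p = 0.0476) and Bhlhe40 by 1.26 (edgeR adjusted p = 0.0177), and no gene of any list was lower.

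Recycling cells, named for a return from the light to the dark zone, were few, with 8, 10, 15 and 49 in the 4 libraries, and are given without a test. Ldha was at 993, 1334, 1130 and 1222 CPM in them, above the CC range of 453 to 594 and the prememory range of 657 to 720. Pkm at 450 to 660 CPM was above its CC range of 310 to 377, and Tpi1 at 314 to 461 CPM was above its CC range of 123 to 187. Aldoa at 450 to 769 CPM overlapped its CC range of 486 to 561. Medians in these cells were 5820 to 7615 UMIs.

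Early CB also had more Ldha than CB, with 582, 660, 688 and 674 CPM, above the CB range of 353 to 453 in every library. Tpi1 was at 270 to 348 CPM in early CB and 180 to 231 in CB, which also did not overlap. Aldoa was at 289 to 430 CPM in early CB and 251 to 272 in CB. Across the classes Aldoa was ordered from CB through transitioning cells (421 to 470 CPM) to CC (486 to 561 CPM) without overlap, and its prememory range of 417 to 531 overlapped both later classes. For Gapdh the ranges of early CB, CB and transitioning cells overlapped, CC lay below them and prememory cells below CC.

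**Figure D4:**
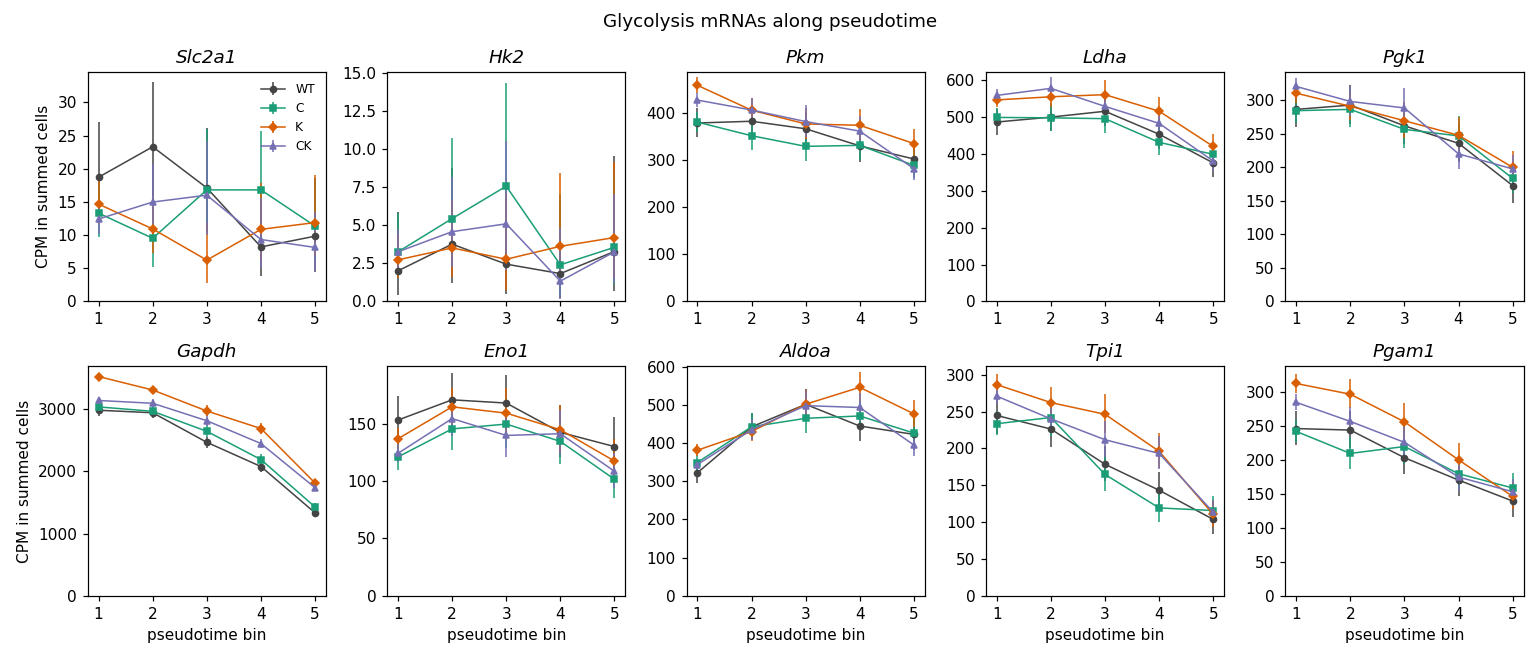
Levels of the 10 members in CPM (y axis, from 0) in 5 bins of the deposited pseudotime (x axis), each bin holding an equal number of WT cells, with 1 line per library and bars for the 95% exact Poisson interval. Tpi1, Gapdh and Pgam1 decline from bin 1 to bin 5 in all 4 libraries, and Aldoa ends above its start.

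The deposited pseudotime ordered GC B cells from CB to CC and prememory cells, and mutant cells were placed by the share of WT cells before them. CB and early CB together made up 60.8 to 68.8% of the first bin and prememory cells 12.7 to 47.8% of the last. Gapdh was at 2979, 3033, 3520 and 3136 CPM in the first bin and at 1333, 1427, 1811 and 1736 in the last. Tpi1 had log2 ratios of the last over the first bin of -1.24, -1.01, -1.38 and -1.26, the steepest of the members except in C, where Gapdh was at -1.09. Pgam1 ran from -0.61 to -1.09 and Pgk1 from -0.63 to -0.73. These values are descriptions, since the order was itself made from expression.

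Pkm (-0.33 to -0.60), Ldha (-0.32 to -0.55) and Eno1 (-0.19 to -0.25) declined less. Ldha did not decline steadily. In WT it was at 487, 500, 516, 454 and 376 CPM in bins 1 to 5, with its highest value in the third. Aldoa was at 322, 442, 501, 444 and 423 CPM in WT, and its last bin was above its first in all 4 libraries, by 0.20 to 0.39. Eno1 was highest in the second bin of WT, with 153, 171, 168, 142 and 130 CPM. The median of the 10 members was -0.55, -0.36, -0.42 and -0.61, with a mean of -0.48 and an SD of 0.11 over the 4 libraries. Without prememory cells the mean was -0.64.

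Across 21 points, each a GC subtype of 1 library with at least 20 cells, the members did not follow a single pattern. The correlation of a member with the mean of the other 9 was 0.714 for Pkm, 0.702 for Tpi1, 0.635 for Pgk1, 0.600 for Pgam1 and 0.452 for Ldha. It was 0.261 for Hk2, 0.194 for Gapdh, 0.162 for Eno1, 0.003 for Slc2a1 and -0.028 for Aldoa. Hk2 was sparse, at 0 to 22.5 CPM in prememory cells on 0 to 6 UMIs, and is part of the mean of the members. That mean gives each member the same weight on the log2 scale, so counting error in Hk2 enters it in full. How far Hk2 sets these correlations was not tested. Points of 1 library share depth and a mouse, so these correlations are descriptions. Of 2702 other genes, those whose log2 level was most like the mean of the members were Alad (r = 0.853), an enzyme of heme synthesis, Ndufab1 (0.831), a mitochondrial acyl carrier protein, Zcchc17 (0.820), Mrps7 (0.809), a mitochondrial ribosomal protein, and Mthfd2 (0.808), an enzyme of mitochondrial folate metabolism. Psma7 (0.796), a proteasome subunit, Mtx2 (0.795), Umps (0.794), which completes UMP synthesis, Gm16286 (0.783) and Snrnp40 (0.779) followed.

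Genotypes were compared with 1 library each, so no difference has a replicate check and no test was made. Ratios are given with 95% exact conditional binomial intervals that cover counting error only, beside the same ratio in T-like cells, which are outside the GC B lineage. In GC B cells the log2 ratio of C over WT had a median of 0.01 over the 10 members and 0.01 over all genes. Gapdh was at 0.08 (0.05 to 0.11) and Eno1 at -0.27 (-0.40 to -0.15), while the intervals of the other 8 included 0. No member reached 0.5 in size among the 9 with at least 100 UMIs over both libraries, where 6.14% of 7889 genes did, 3.52% on the higher and 2.61% on the lower side.

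K over WT had a median of 0.20 over the members against -0.14 over all genes, and 6 members had intervals above 0. Tpi1 was at 0.40 (0.30 to 0.50), Pgam1 at 0.39 (0.30 to 0.49), Gapdh at 0.35 (0.32 to 0.38), Pkm at 0.22, Ldha at 0.17 and Pgk1 at 0.14. Slc2a1 was at -0.40 (-0.78 to -0.02). In the T-like cells Tpi1 was at 0.44 (0.22 to 0.67), Gapdh at 0.29 (0.24 to 0.34) and Pgam1 at 0.14 (-0.03 to 0.31). Pgk1 was at 0.17, Pkm at 0.08 and Ldha at 0.06 in them, and 4 members had intervals above 0. The T-like median was 0.10 over the members and -0.15 over all genes. The GC B median was 0.0155 relative to T-like cells, 0.33 with median-ratio scaling and 0.0454 when cells at or above 2500 genes were added. None of 9 members reached 0.5, where 30% of 8088 genes did, 5.08% at or above 0.5 and 25% at or below -0.5.

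CK over WT had a median of 0.17 against -0.02 over all genes. Tpi1 was at 0.32 (0.22 to 0.42), Pgam1 at 0.26 (0.17 to 0.36), Gapdh at 0.22 (0.20 to 0.25), Pgk1 at 0.18, Ldha at 0.17 and Pkm at 0.15. Eno1 was at -0.25 (-0.36 to -0.14), Slc2a1 at -0.39 (-0.75 to -0.02) and Aldoa at -0.11 (-0.17 to -0.04). No member reached 0.5, where 16.2% of 8483 genes did (8.37% higher and 7.80% lower). In T-like cells Tpi1 was at 0.27 (0.05 to 0.49), Gapdh at 0.19 (0.15 to 0.24) and Pgam1 at -0.05 (-0.21 to 0.12), with a median of 0.09. Pgk1 was at 0.14, Ldha at 0.09 and Pkm at 0.09 in them, and 5 members had intervals above 0. The CK median in GC B cells was 0.0422 relative to T-like cells, 0.08 when subtypes were weighted as in WT, and -0.00146 when cells at or above 2500 genes were added.

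**Figure D5:**
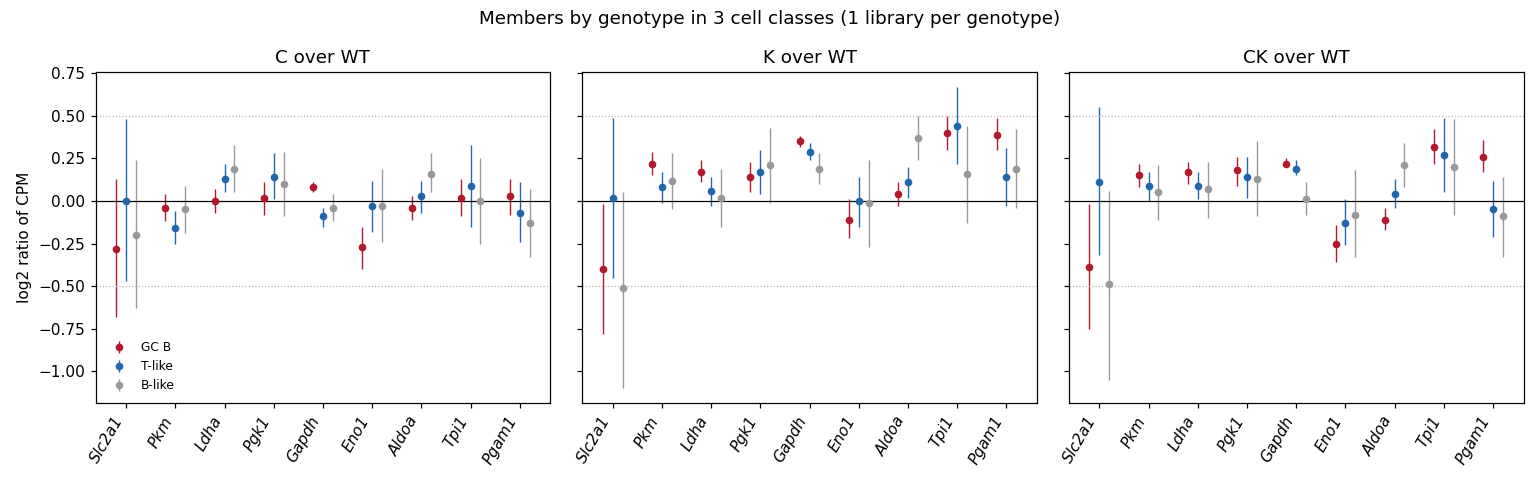
Log2 ratio of CPM of each mutant library over WT (y axis) for 9 members (x axis, without Hk2) in GC B, T-like and B-like cells, with bars for the 95% exact conditional binomial interval and dotted lines at 0.5 and -0.5. In K and CK, Gapdh and Tpi1 are above 0 in both GC B and T-like cells, and in GC B cells Eno1 is below 0 in C and CK.

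Eno1 was at 154, 128, 144 and 130 CPM in GC B cells, lowest in C and CK. In K its ratio of -0.11 had an interval that included 0 (-0.22 to 0.01) and was close to the median of all genes there, -0.14. Within CB, C had -0.52 (-0.84 to -0.20), K had -0.23 and CK had -0.38 (-0.65 to -0.10). In T-like cells Eno1 was at -0.03, 0.00 and -0.13, with intervals that all included 0, as they did in B-like cells. The 3 ratios share the WT library and are not independent. Slc2a1 was at 98 UMIs in WT and also had ratios below 0 in all 3 mutants, at -0.28 (-0.68 to 0.13), -0.40 and -0.39. In B-like cells it was at -0.20, -0.51 and -0.49, and in T-like cells at 0.00, 0.02 and 0.11. The intervals in B-like and T-like cells all included 0.

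The subtype mix differed between libraries, and CB were 183 of 1227 cells in WT and 1013 of 3953 in CK. Aldoa in CK over WT was at -0.11 over all GC B cells, but at 0.40 (0.04 to 0.78) in early CB, -0.08 (-0.28 to 0.12) in CB, 0.13 (0.03 to 0.24) in transitioning cells and -0.08 (-0.21 to 0.04) in CC. For Ldha in CC the C ratio was 0.01, the K ratio 0.39 (0.27 to 0.51) and the CK ratio 0.18 (0.06 to 0.31). Pgam1 in early CB was at 0.76 (0.31 to 1.24) in K and 0.65 (0.20 to 1.13) in CK, on 44 UMIs in WT. Gapdh in CB was at 0.01, 0.19 (0.13 to 0.25) and 0.00 in C, K and CK.

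The other pathway lists were read over all GC B cells with the same minimum of 100 UMIs. Of 14 hypoxia genes 8 were read in each mutant. In C none was at or above 0.5 and 2 were at or below -0.5 (median -0.18). In K none was at or above 0.5 and 4 were at or below -0.5 (median -0.54), beside 25% of all genes. In CK 1 was above and 1 below. Hif1a, the oxygen-regulated activator of glycolysis genes, was at -1.26 in K on 545 UMIs against 624 in WT, and at -1.33 in T-like and -1.32 in B-like cells of the same library. Bhlhe40 was at -0.69 in C, -0.69 in K and -0.85 in CK on 81 UMIs in WT. Its ratios were -0.60, -0.88 and -0.58 in T-like cells, but 0.26, 0.32 and 0.08 in B-like cells. Ddit4, an inhibitor of mTORC1, was at -0.65 in K, at 0.03 in T-like and at -0.21 in B-like cells. Arnt, the partner of Hif1a, was at -0.61 in K, at -0.75 in T-like and at -0.35 in B-like cells. Ankrd37 was at -0.56 in C, at -0.17 in T-like and at 0.32 in B-like cells. Egln1 was at 0.91 in CK on 364 UMIs against 76 in WT, at 0.25 in T-like and at -0.05 in B-like cells. Aldoc was at -0.71 in CK on 123 UMIs against 79. It was the only 1 of 7 other glycolysis enzymes read, of 16 listed, to reach 0.5 in a mutant over all GC B cells. The counts of genes read in C, K and CK were 2, 3 and 3 of 8 for glucose and lactate handling, 1, 1 and 3 of 10 for flux, 7 of 7 for pentose phosphate and 9 of 9 for pyruvate, and none of these reached 0.5 over all GC B cells. Within CB, Pgd was at -0.59 in C, -0.65 in K and -0.57 in CK. Pfkp was at -0.65 in C, and Rpe at -0.51 and Hif1a at -1.24 in K. In CB of CK, Egln1 was at 2.10, Pfkl at 1.27, Dlat at 0.77 and Bpgm at -0.81. Within CC, Hif1a was at -1.33 and Idh3a at 0.52 in K. The WT side of these ratios is 183 CB and 382 CC, with a minimum of 100 UMIs over both libraries. The 76 Egln1 UMIs of WT are those of all its GC B cells, and its CB hold only a part of them. Counts, intervals and the share of all genes past 0.5 are not given within CB or CC, so these ratios are descriptions only.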

How the data were processed

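The study's authors prepared 3′ droplet libraries (10x Chromium) from sorted cells, 1 per mouse, and counted UMIs with Cell Ranger (3.0.2 per the file headers, 3.0 per the processing notes) against mm10. The deposited matrices hold raw UMI counts per gene and barcode. The deposited cell table gives subtype names, transferred by the authors from earlier data sets in Seurat 4.0, S-phase and G2M module scores, and a slingshot pseudotime rank. The deposited scores are means of gene lists minus control genes.

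All 9804 annotated cells matched a barcode. Deposited UMI sums equalled the matrix sums in 79.9% of them and differed by at most 5 otherwise. Barcodes under 8% mitochondrial UMIs were clustered in scanpy 1.11.5 (2000 variable genes, 30 components, 20 neighbours, Leiden in igraph 0.11.9) without members, pathway, immunoglobulin and mitochondrial genes, and clusters were named from fixed markers. Across libraries 143 barcodes were shared, and Scrublet called 3.32 to 5.01% of barcodes doublets, which were kept in the main values.

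Counts were summed per library and class. Comparisons of classes used edgeR 4.0.16 in R 4.3.3 (quasi-likelihood test with library as block, TMM, filterByExpr, Benjamini-Hochberg over all genes tested, threshold 0.05, two-sided), where both sums of a library come from the same mouse. The 4 libraries stand in for replicates and differ in genotype, so p-values measure the spread of a class difference over 4 mice of 4 genotypes. DESeq2 1.42.0 was an alternative. The fit was also run on counts simulated from the CB and CC totals without a library or genotype effect, and no result here rests on that run. CPM are counts scaled to a total of 1e+06 summed UMIs, and per-library ratios are of CPM without TMM. Genes counted for genotype ratios had 100 or more UMIs in WT and the mutant combined and were called at 0.5 on the log2 scale. Intervals (95%) cover counting error only. Coordinates are from GENCODE vM21 and promoter windows from RefSeq (GRCm38.p6). Aldoa has a second Ensembl entry with 0 UMIs in GC B cells, and the near copy Eno1b counted 6 to 17 UMIs there beside 937 to 2004 of Eno1.

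All 10 members are named. From each pathway list, up to 3 called genes with the largest differences are named. For genotypes every list gene past 0.5 over all GC B cells, in CB or in CC is named. The members and lists were chosen with earlier results of these data known.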

Additional observations from a re-analysis of the deposited data

Results flagged for a closer look

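Gapdh in C over WT had intervals on opposite sides of 0 in different cell classes. It was at 0.08 on the log2 scale in GC B cells (95% interval 0.05 to 0.11) and at 0.23 in early CB (0.10 to 0.36), but at -0.09 in T-like cells (-0.15 to -0.04). Aldoa in CK over WT was at -0.11 in GC B cells (-0.17 to -0.04), at 0.40 in early CB (0.04 to 0.78), at 0.13 in transitioning cells (0.03 to 0.24) and at 0.21 in B-like cells (0.08 to 0.34). Tpi1 in CC over prememory cells was at 0.75 in the K library (0.24 to 1.30) and at -0.43 in the C library (-0.77 to -0.09). These intervals cover counting error only, and none of these differences between classes or libraries was tested.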

How the results depend on the processing

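Alternatives covered scaling, the test, the filter on low counts, each library left out, doublets, immunoglobulin genes, the gene limit, depth and the library block. Thinning outside the comparisons by Myc and cycle score, and the settings by Myc with its status kept from before thinning, were chosen after seeing the data. Over single members and settings, 587 values kept direction and side of the threshold, 39 lost the call, 4 gained one and 25 changed sign, and the cause was not tested.

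No paired analysis was possible because each genotype has 1 library, so the genotype ratios carry no block. Between classes the block is the mouse. With no replicate block the members called were 5 of the 7 between T-like and B-like cells, 3 of the 7 between CB and CC, 1 of the 4 between CC and prememory cells, 0 of the 1 by Myc and 1 of the 6 by cycle score. Thinning left 0 called by Myc, also with Myc status kept from before it, and leaving out a library gave 0 to 1.

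The K over WT median of members was 0.33 with median-ratio scaling, 0.0155 relative to T-like cells and 0.0454 with cells at or above 2500 genes added. The CK median was 0.0422 relative to T-like cells, 0.08 weighted by WT subtype shares and -0.00146 with those cells added. Along pseudotime the mean was -0.64 without prememory cells.

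Sign changes were all in members without a call in the main comparison. In T-like over B-like cells Tpi1 was at 0.13 with no limit on genes. In CC over prememory cells Slc2a1 was at 0.013 (DESeq2 Wald test) and 0.059 (no filter), and Tpi1 at -0.06 (cells added) and -0.12 (thinned). There, leaving out a library gave -0.16 to 0.081 for Slc2a1, -0.008 to 0.18 for Pkm and -0.11 to 0.27 for Tpi1. By Myc, Pkm was at -0.001 (no filter) and -0.14 (thinned), and Tpi1 at -0.29 (thinned). With Myc status kept, Pkm was at -0.097, Gapdh at 0.003 and Aldoa at 0.029 after thinning. Gapdh was at 0.01 and 0.008, and Aldoa at 0.014 and 0.01, with DESeq2 size factors and the Wald test. Leaving out a library gave -0.25 to 0.074 for Slc2a1, -0.002 to 0.12 for Pkm, -0.061 to 0.017 for Gapdh and -0.072 to 0.021 for Aldoa. By cycle score Aldoa was at -0.008 to 0.029.

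Counts over all genes moved more. The DESeq2 Wald test called 2952 genes between CB and CC (4552 in edgeR), 2011 between CC and prememory cells (3139), 119 by Myc (341) and 956 by cycle score (2371). No block gave 2845, 69 and 606 for CB, Myc and cycle score. Thinning gave 3945 for GC B (6819), 3903 for T-like cells (6467), 2042 for CC over prememory cells, 74 by Myc (132 with its status kept) and 1352 by cycle score. By Myc, 215 genes were called without WT, 96 without K and 130 without CK. The share called higher by Myc was 64.8%, against 79.0% with the Wald test and 51.5% with no filter, and by cycle score 57.9%, against 70.9% with the Wald test and 86.3% with no block.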
